A study of Mus musculus with 18 samples.

Results

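A set of 10 immediate early genes was followed through 18 bulk RNA-seq libraries of mouse small intestinal epithelium. They are Fos, Fosb, Jun, Junb, Jund, Egr1, Atf3, Ier2, Ier3 and Dusp1, chosen by symbol, and all 10 were listed in each of the 3 deposited tables, which share 16414 genes. Crypts had been isolated from the duodenum of 3 WT (Mtgr1+/+) and 3 Mtgr1-/- mice (labelled null), age-matched littermates of both sexes in a study that used mice 8 to 12 weeks old for such cultures. From each mouse, part of the crypts was lysed at once (day 0), part after 24 h as enteroids (day 1) and part after 72 h (day 3), so that each genotype and time point has 3 libraries. Enteroids are small organoids grown from crypts, here in Matrigel under ENR medium, and the culture was the same for both genotypes. MTGR1, encoded by Cbfa2t2, is a transcriptional co-repressor, and the Mtgr1-/- mice lack it in every cell rather than in the epithelium alone. The question put to these libraries was how gene expression differs without MTGR1, in fresh crypts and as enteroid cultures proceed.

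Immediate early genes are transcribed within minutes of a stimulus, without new protein synthesis, because the factors that switch them on, such as SRF with its ternary complex partners and CREB, are already present and are activated by phosphorylation through ERK, p38 and other kinases. Most of their transcripts are short-lived, so that a level reflects recent transcription. FOS and FOSB pair with a JUN protein to form AP-1, whereas JUN proteins also pair with each other. EGR1 is a zinc finger factor induced by growth factors, ATF3 a stress-induced bZIP factor, and DUSP1 a phosphatase that switches off p38, JNK and ERK. In intestinal tissue these genes are known to respond to dissociation and handling as well as to mitogens.

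Promoter sequence was read from the RefSeq table (GRCm38.p6), which held 8 of the 10 genes. It did not hold Egr1 and Ier2. The 150 bases before the RefSeq start are shown for Fos and Dusp1, whose windows held a cyclic AMP response element (CRE) or its core. They are also shown for Jun and Junb, which differed between genotypes in opposite directions in day 3 enteroids. The windows of Fos, Dusp1, Jun and Junb lie at chr12:85473740-85473889 (+ strand), chr17:26508473-26508622 (- strand), chr4:95052223-95052372 (- strand) and chr8:84978749-84978898 (- strand). Each is written 5′ to 3′ on its gene's strand, with matches to a searched motif in capitals.
Fos: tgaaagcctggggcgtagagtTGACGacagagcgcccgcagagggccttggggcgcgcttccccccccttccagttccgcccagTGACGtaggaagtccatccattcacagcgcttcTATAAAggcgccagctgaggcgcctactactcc
Dusp1: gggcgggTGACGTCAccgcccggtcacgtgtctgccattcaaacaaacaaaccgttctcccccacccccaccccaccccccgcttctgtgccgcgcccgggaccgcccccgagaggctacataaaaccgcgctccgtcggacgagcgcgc
Jun: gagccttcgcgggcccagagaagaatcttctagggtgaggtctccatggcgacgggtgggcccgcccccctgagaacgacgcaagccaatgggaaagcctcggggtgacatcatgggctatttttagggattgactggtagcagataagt
Junb: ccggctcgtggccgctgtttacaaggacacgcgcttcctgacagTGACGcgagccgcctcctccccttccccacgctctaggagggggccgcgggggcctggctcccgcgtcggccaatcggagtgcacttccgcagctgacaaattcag
Both strands were searched for the CRE (TGACGTCA), the CRE core TGACG that lies inside it, the TATA box TATAAA, the AP-1 motif TGANTCA, the EGR motif and the CArG box, to which SRF binds. In Fos the core began 129 and 66 bases before the start and the TATA box 33 bases before it. Dusp1 held the full CRE 143 bases before its start, which 1.36% of all 32851 promoter windows of this length also held. Junb held the core 106 bases before the start, Fosb held it 60 bases before the start with an EGR motif at 50, and Atf3 held it on the opposite strand 7 bases before the start. The core was in 13.3%, TATAAA in 7.57% and the EGR motif in 3.81% of all windows. None of the searched letters stood in these windows of Jun, Jund and Ier3. The Jund window ends at 70697738 on chromosome 8, upstream of the counted gene model, which starts at 70698949, and the RefSeq starts of Dusp1 and Atf3 lie inside their counted gene models, so these 3 windows may not be the start used in these cells. The AP-1 motif (4.24% of all windows) and the CArG box (0.916%) were in none of the 8. Only exact letters were searched, so near matches were not counted, such as tgacatca in the printed Jun window. Sites farther upstream than 150 bases were not searched, so these absences do not show that a promoter lacks such a site.

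Recovered depth was 22035316 to 29661084 reads on genes per library. Values are counts divided by 1 factor per library, within the table of each time point, and levels compared between time points were put on 1 common scale over all 18 libraries. The targeted gene Cbfa2t2 was not lower in the libraries labelled Mtgr1-/-, at 466 to 697 in crypts against 523 to 614 in WT (log2 fold change -0.05, adjusted p = 0.917 by limma). At day 1 it stood at 789 to 1160 against 710 to 788, above every WT library (0.37, adjusted p = 0.0557). Day 3 values were 766 to 976 against 774 to 883 (0.06, adjusted p = 0.686). From crypts to day 1 it rose in the libraries labelled Mtgr1-/- (0.68, adjusted p = 0.00238), and the WT change did not pass (0.25, adjusted p = 0.180). The altered part of the gene is not given in the sources used here, so counts over the whole gene do not check the label, and every direction below rests on the label. WT crypt library 3 stood apart through leukocyte transcripts, with Ptprc at 4156 on the common scale against 157 to 499 in the other 5 crypt libraries, and null crypt library 3 had the highest Hspa1b of the crypts (1566 against 140 to 431 on the common scale). The epithelial marker Epcam was abundant in every library (21460 to 39530 on the common scale), and none of the 7 epithelial markers was at 0 in any library. Xist was at 9164 to 14090 in WT mouse 3 and null mouse 1 at all 3 times and at most 18.5 in the other mice, so each genotype holds mice of either kind. In bulk RNA, fewer cells of a type and less RNA per cell cannot be told apart.

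In day 3 enteroids labelled Mtgr1-/-, transcripts of most immediate early genes were more abundant than in WT, and Jun was less abundant. Of 9 tested there, 7 were higher (Fos, Junb, Jund, Egr1, Atf3, Ier3 and Dusp1) and 1 lower (Jun), by limma at an adjusted p below 0.05, against 29.9% of all tested genes higher and 29.1% lower. The median log2 fold change was 1.199 for the 9 and 0.003 for all genes. At day 1, 3 of 10 were higher (Junb, Jund, Ier3) and 2 lower (Jun, Ier2), where 30% of all genes were higher and 28.9% lower, so the count of members lay near the background. Their median log2 fold change at day 1 was 0.54, against -0.008 for all genes. In crypts none of the 10 passed, where 1.58% of all genes were higher and 3.15% lower. Of these 10, 1 (Egr1) had an adjusted p below 0.05 by DESeq2 and 0 by edgeR, and 3 (Fos, Fosb and Egr1) had an unadjusted p below 0.05 by limma.

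Counted by libraries alone and leaving out Fosb at day 3, which was not tested, the values of all 3 libraries labelled Mtgr1-/- lay above every WT library for 2 genes in crypts (Fosb and Egr1), 3 at day 1 and 7 at day 3. Among all tested genes this held for 12%, 34.2% and 34.6%. They lay below every WT library for 0, 2 and 1 genes, against 13.5%, 33.9% and 34.2% of all genes. With 3 libraries against 3, an exact permutation test of 1 gene cannot give a p below 0.1, so the adjusted p-values are those of the limma model across all genes.

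**Figure D1:**
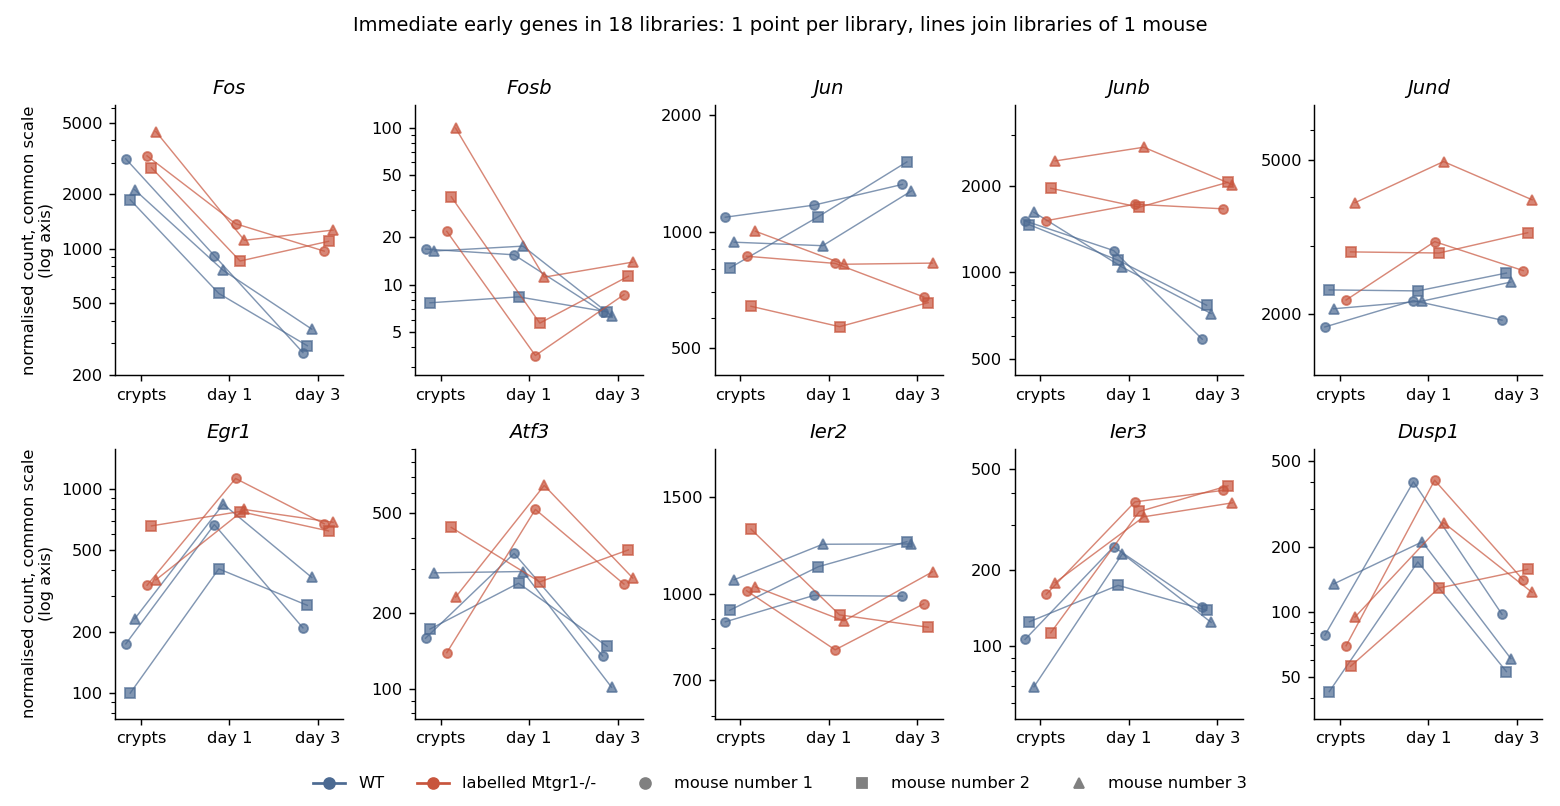
Normalised counts of the 10 genes on the common scale (log axis) against time point, with 1 point per library and lines joining libraries of 1 mouse, WT in blue and libraries labelled Mtgr1-/- in red. The red and blue points of Fos, Junb and Ier3 are farthest apart at day 3, where the Jun points are separated in the opposite direction.

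**Figure D2:**
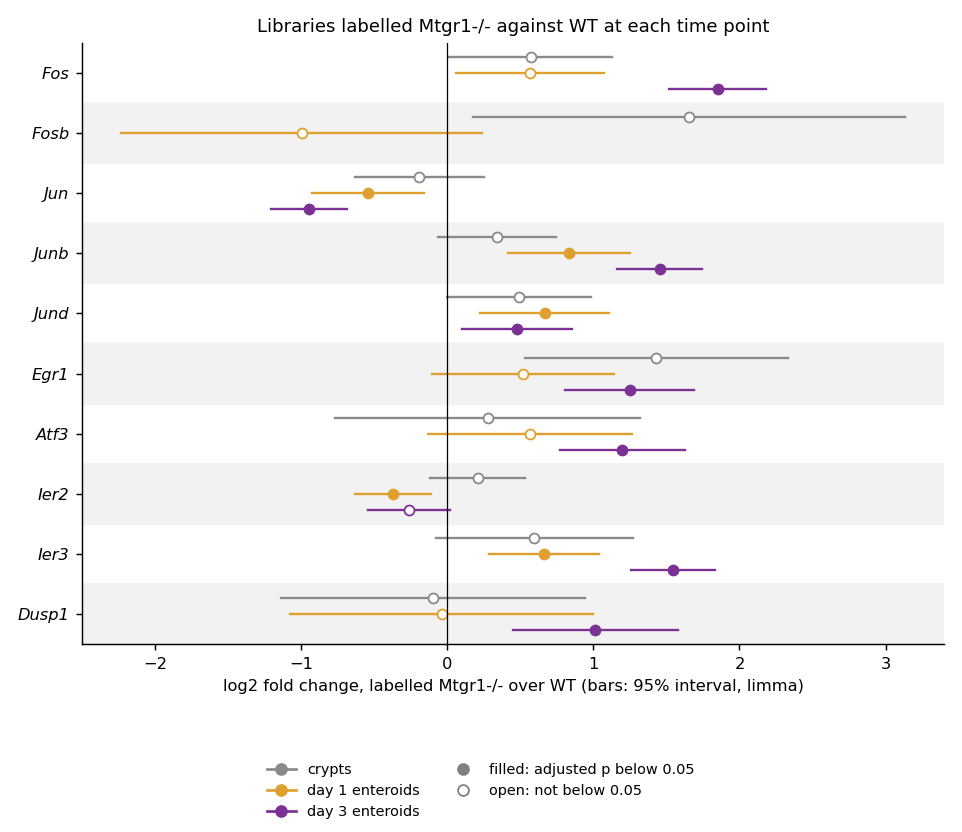
Log2 fold change of libraries labelled Mtgr1-/- over WT for each gene (x axis) in crypts, day 1 and day 3 enteroids, with 95% intervals from limma and filled points where the adjusted p is below 0.05. At day 3 Fos is at 1.85 and Jun at -0.95, and Fosb has no day 3 point because its mean was under 10.

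Of the 10 genes, Fos differed most at day 3. Its normalised counts were 283, 307 and 382 in WT, against 1021, 1157 and 1328 in the libraries labelled Mtgr1-/-. The lowest of the latter was above the highest WT library, and the log2 fold change was 1.85 ± 0.14 (SE, adjusted p = 4.07e-05 by limma). At day 1 the values were 917, 562 and 758 in WT against 1357, 853 and 1097, which overlap and differed by 0.57 ± 0.22 on the log2 scale (adjusted p = 0.0539). The labels give no pairing between genotypes, but same-numbered day 1 libraries deviated together. With the mouse number as a block, a pairing read from these same data, Fos passed (adjusted p = 0.00199 by limma, range 0.00199 to 0.264 over 17 alternatives). That block result is therefore no independent support. Fos also passed by DESeq2 on the recovered reads (adjusted p = 0.0228). By limma it passed with array weights (0.00469), without WT library 1 (0.0321) and without null library 2 (0.0144). In all, 5 of the 17 alternatives passed. In crypts Fos counted 2858, 1685 and 1937 in WT, against 2955, 2578 and 4015 in the libraries labelled Mtgr1-/-, which overlap (log2 fold change 0.57 ± 0.24, adjusted p = 0.259).

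Over culture, Fos was highest in fresh crypts of both genotypes. On the common scale its WT mean fell from 2377 ± 677 in crypts to 746 ± 175 at day 1 and 305 ± 48.2 at day 3 (SD, n = 3 each), a log2 change of -1.66 ± 0.23 and then -1.27 ± 0.23 (SE, adjusted p = 3.43e-05 and 0.00433). In the libraries labelled Mtgr1-/- it fell from 3510 ± 847 to 1114 ± 260 (log2 change -1.65 ± 0.23, adjusted p = 4.75e-05) and then stood at 1112 ± 150 at day 3, a log2 change of 0.02 with a 95% interval from -0.47 to 0.50. All 3 WT mice fell from day 1 to day 3, by 1.78, 0.96 and 1.08 on the log2 scale. The 3 mice labelled Mtgr1-/- changed by -0.50, 0.36 and 0.19. The difference between the genotypes in this second step was 1.29 ± 0.33 on the log2 scale, with an unadjusted p of 0.00117 that did not pass after adjustment over all genes (adjusted p = 0.158, range 0.0173 to 0.437 over 22 alternatives).

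Fosb, the relative of Fos that is low in unstimulated cells, was near the limit of detection in enteroids. In crypts its normalised counts were 15.3, 6.93 and 15.0 in WT, against 19.8, 33.3 and 89.4 in the libraries labelled Mtgr1-/-. These did not overlap, but the log2 fold change of 1.65 ± 0.62 did not pass (adjusted p = 0.218), and it was 1.07 without null crypt library 3 (adjusted p = 0.447, range 0.0928 to 0.447 over 18 alternatives), the library with the high Hspa1b. At day 1 the order was not kept, with 15.5, 8.33 and 17.6 in WT, against 3.50, 5.69 and 11 in the others (log2 fold change -0.996 ± 0.53, adjusted p = 0.141). Day 3 values of 7.17, 7.13 and 6.78 against 9.10, 11.9 and 14.6 were under the minimum mean of 10 and were not tested. Between crypts and day 1, Fosb fell in the libraries labelled Mtgr1-/- by 2.62 ± 0.52 on the log2 scale (adjusted p = 0.00101), in all 3 mice, whereas the WT change was 0.03 ± 0.52 (adjusted p = 0.965). The test of that difference passed, at -2.65 ± 0.73 (adjusted p = 0.0110), and passed in all 23 alternatives, among them the one without both crypt libraries of mouse 3 (-2.21, adjusted p = 0.0247, range 0.00258 to 0.0337).

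The 3 Jun genes did not move together. Jun, the partner whose product can also form AP-1 without FOS, counted 1411, 1603 and 1357 in WT day 3 enteroids and 715, 691 and 869 in those labelled Mtgr1-/-. Its groups were separated there, with a log2 fold change of -0.95 ± 0.11 (adjusted p = 0.000318). At day 1 they were separated as well, at 1173, 1087 and 919 against 817, 568 and 813 (log2 fold change -0.54 ± 0.17, adjusted p = 0.0228, lost without WT library 1 or WT library 2, at 0.0807 and 0.0687, range 0.00117 to 0.0807 over 17 alternatives). In crypts Jun counted 990, 728 and 858 against 782, 589 and 904, which overlap (log2 fold change -0.19 ± 0.19, adjusted p = 0.646).

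Junb, whose product is a weaker activator than JUN at many AP-1 sites, went the other way. Its counts at day 3 were 624, 814 and 767 in WT and 1750, 2165 and 2114 with the label Mtgr1-/-, higher by 1.45 ± 0.13 on the log2 scale (adjusted p = 6.95e-05). At day 1 they were 1193, 1096 and 1040 against 1703, 1681 and 2686 (log2 fold change 0.83 ± 0.18, adjusted p = 0.00536), again without overlap, and Junb passed in all 17 alternatives at each of these times. In crypts the values of 1371, 1321 and 1477 against 1368, 1798 and 2199 overlapped (log2 fold change 0.34 ± 0.17, adjusted p = 0.355). Over culture, Junb fell in WT from a common-scale mean of 1530 ± 79.3 to 1111 ± 75.3 and 691 ± 94.6 (SD, n = 3 each), by 0.46 ± 0.18 and 0.69 ± 0.18 on the log2 scale (adjusted p = 0.0405 and 0.0315). The first call was lost without each of the 6 libraries in turn (adjusted p from 0.0578 to 0.117), without both crypt libraries of mouse 3 (0.0825), when scaled to the library total (0.217) and with no trend (0.0545), and the second without each of its 6 libraries (0.0503 to 0.137). In the libraries labelled Mtgr1-/- the means were 1970 ± 464, 2043 ± 588 and 1912 ± 217, and neither step passed (log2 changes 0.04 and -0.07).

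Jund, the Jun gene with the steadiest expression in most tissues, was also higher in enteroids labelled Mtgr1-/-, by less. Day 1 counts were 2167, 2279 and 2154 in WT, against 3034, 2868 and 4890 in the others, higher by 0.67 ± 0.19 on the log2 scale (adjusted p = 0.0173). Day 3 counts of 2050, 2700 and 2575 against 2722, 3414 and 4134 were just separated, with a log2 fold change of 0.48 ± 0.16 (adjusted p = 0.0345). Neither call was firm: the first was lost without WT library 1 or WT library 3 and when scaled to the library total (adjusted p = 0.0504, 0.0517 and 0.111, range 0.00116 to 0.111 over 17 alternatives), and the second without WT library 1, WT library 3, null library 2 or null library 3 (0.121, 0.0639, 0.0589 and 0.106), when scaled to the library total (0.152), with quantile normalization (0.123) and with no trend (0.0703, range 0.000611 to 0.152). Crypt counts overlapped, at 1678, 2080 and 1880 against 1962, 2651 and 3496 (log2 fold change 0.49 ± 0.21, adjusted p = 0.271). No change over culture passed for Jund in either genotype.

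The reads of Fos per read of Jun in the same library did not overlap between genotypes at any time point, and this ratio does not depend on how libraries were scaled. Neither gene passed in crypts and Fos did not pass at day 1, and the ratio does not replace those tests. How often ratios of other gene pairs separate was not counted. The ratio of Fos to Jun reads was 2.26 to 2.89 in WT crypts and 3.78 to 4.44 in those labelled Mtgr1-/-. At day 1 it was 0.517 to 0.825 against 1.35 to 1.66, and at day 3 it was 0.192 to 0.282 against 1.43 to 1.68. The ratio of Junb to Jun reads was 1.38 to 1.82 in WT crypts against 1.75 to 3.05, which overlap, 1.01 to 1.13 against 2.08 to 3.30 at day 1, and 0.442 to 0.565 against 2.43 to 3.13 at day 3. Both ratios were formed after the values of single genes were known and are given without a test, and they are not corrected for transcript length, so they compare libraries and not the abundance of one gene with another.

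**Figure D3:**
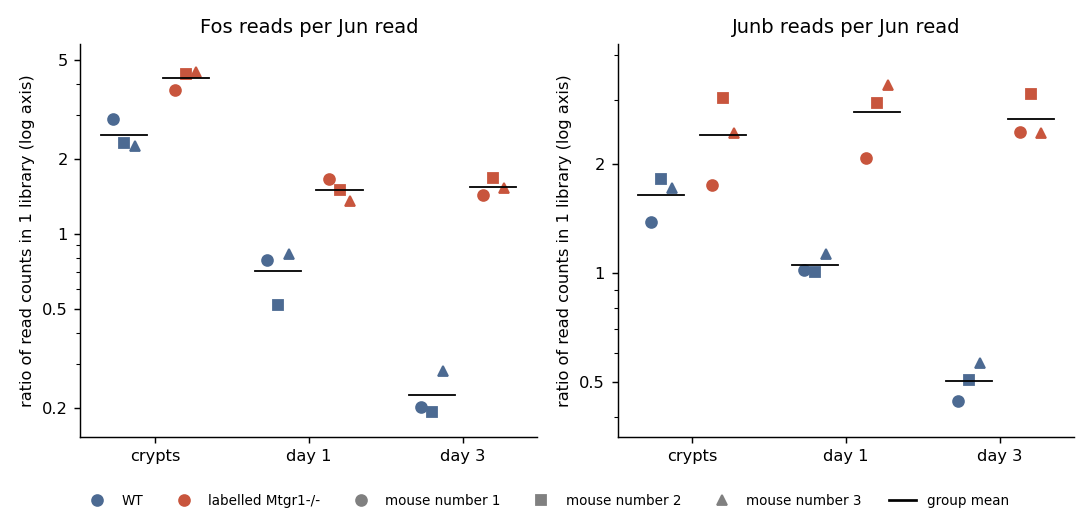
Reads of Fos (left) and Junb (right) per read of Jun in each library (log axis) against time point, WT in blue and libraries labelled Mtgr1-/- in red, with the group mean as a bar. The WT ratio of Fos to Jun declines from 2.26 to 2.89 in crypts to 0.192 to 0.282 at day 3, while the libraries labelled Mtgr1-/- stand at 1.35 to 1.66 at day 1 and 1.43 to 1.68 at day 3.

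Egr1, a growth factor-induced zinc finger factor, rose on plating in both genotypes. Its WT mean on the common scale was 168 ± 65.6 in crypts, 640 ± 220 at day 1 and 282 ± 80.8 at day 3 (SD, n = 3 each). In the libraries labelled Mtgr1-/- it was 452 ± 180, 899 ± 198 and 662 ± 34.1. The rise from crypts to day 1 was 1.94 ± 0.33 on the log2 scale in WT (adjusted p = 0.000175) and 1.04 ± 0.33 in the others (adjusted p = 0.0209, lost without null crypt library 1, null crypt library 3 or null day 1 library 1, at 0.0890, 0.0809 and 0.0971, or both crypt libraries of mouse 3, at 0.0563, range 0.00229 to 0.0971 over 17 alternatives). The difference between these rises did not pass (-0.90 ± 0.46, adjusted p = 0.134). From day 1 to day 3 Egr1 fell in WT by 1.15 ± 0.33 (adjusted p = 0.0429), a call lost without WT day 1 library 1 or 3 or WT day 3 library 1 or 2 (adjusted p from 0.142 to 0.207), when scaled to the library total (0.0647) or with no trend (0.0621, range 0.00547 to 0.207 over 16 alternatives), and the change of -0.42 ± 0.33 in the others did not pass (adjusted p = 0.396).

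Between genotypes, Egr1 at day 3 counted 222, 285 and 393 in WT, against 711, 656 and 720 in the libraries labelled Mtgr1-/-. These did not overlap and differed by a log2 fold change of 1.25 ± 0.19 (adjusted p = 0.000980). In crypts the values of 158, 90.1 and 211 against 305, 605 and 323 were also separated, with a log2 fold change of 1.43 ± 0.38 that did not pass by limma (adjusted p = 0.0930) but did by DESeq2 on the recovered reads (adjusted p = 0.00764, range 0.00764 to 0.223 over 18 alternatives). At day 1, 671, 404 and 843 overlapped with 1113, 775 and 783 (log2 fold change 0.52 ± 0.27, adjusted p = 0.131).

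Atf3, a stress-induced bZIP factor that represses many of its targets, was higher in day 3 enteroids labelled Mtgr1-/-. It counted 144, 157 and 108 in WT, against 275, 377 and 290 in the others, without overlap (log2 fold change 1.199 ± 0.19, adjusted p = 0.00107). At day 1 the values of 348, 262 and 293 against 512, 266 and 637 overlapped (log2 fold change 0.57 ± 0.30, adjusted p = 0.140), and null library 2 stood among the WT libraries. Without it the log2 fold change was 0.93 (adjusted p = 0.00188, range 0.00188 to 0.431 over 17 alternatives). In crypts, 145, 156 and 265 against 126, 403 and 209 overlapped (log2 fold change 0.28 ± 0.44, adjusted p = 0.796). No change of Atf3 over culture passed, and the largest, in WT from day 1 to day 3, was -1.23 ± 0.37 (adjusted p = 0.0528).

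Ier3, whose product modulates ERK signalling and cell survival, was higher in both cultures labelled Mtgr1-/-. Its day 3 counts were 152, 147 and 133 in WT and 432, 450.4 and 384 with the label Mtgr1-/-, higher by 1.54 ± 0.12 on the log2 scale (adjusted p = 4.60e-05). At day 1 they were 247, 173 and 231 against 365, 339 and 319, separated with a log2 fold change of 0.66 ± 0.16 (adjusted p = 0.00939, lost when scaled to the library total at 0.114, range 0.00175 to 0.114 over 17 alternatives). In crypts 96.8, 113 and 63.3 overlapped with 145, 104 and 161 (log2 fold change 0.60 ± 0.28, adjusted p = 0.329). From crypts to day 1, Ier3 rose in both genotypes and in all 6 mice, by 1.13 ± 0.21 in WT and 1.21 ± 0.21 in the others (adjusted p = 0.000331 and 0.000300), and the difference between these rises was 0.08 with a 95% interval from -0.54 to 0.70. From day 1 to day 3 all 3 WT mice fell (by 0.78, 0.32 and 0.89) and all 3 mice labelled Mtgr1-/- rose (by 0.15, 0.33 and 0.18). Neither mean change passed (-0.67 ± 0.21, adjusted p = 0.0611, and 0.22 ± 0.21, adjusted p = 0.483), nor did their difference (0.89 ± 0.29, unadjusted p = 0.00794, adjusted p = 0.368).

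Ier2, a nuclear protein gene of the first wave of induction, was the other gene lower at day 1. Its counts there were 998, 1116 and 1232 in WT, against 782, 916 and 882 in the libraries labelled Mtgr1-/-, which do not overlap (log2 fold change -0.37 ± 0.11, adjusted p = 0.0215). That call was lost without WT library 2, WT library 3 or null library 1 (adjusted p = 0.0622, 0.0794 and 0.0785, range 0.00257 to 0.0794 over 17 alternatives). Crypt values of 810, 844 and 970 against 918, 1204 and 930 overlapped (log2 fold change 0.21 ± 0.14, adjusted p = 0.474), as did day 3 values of 1058, 1321 and 1317 against 1011, 918 and 1151 (-0.26 ± 0.12, adjusted p = 0.0982). From crypts to day 1 it fell in the libraries labelled Mtgr1-/- by 0.36 ± 0.13 (adjusted p = 0.0377), in all 3 mice (by 0.36, 0.52 and 0.21), and the 3 WT mice changed by 0.16, 0.26 and 0.21 (mean 0.21 ± 0.13, adjusted p = 0.174). The fall was lost without null crypt library 2, null day 1 library 1 or null day 1 library 3 (adjusted p = 0.180, 0.149 and 0.0733, range 0.0184 to 0.180 over 17 alternatives). The difference between the genotypes passed, at -0.57 ± 0.18 (adjusted p = 0.0213), and was lost without WT crypt library 1, null crypt library 2, WT day 1 library 3 or null day 1 library 1 (adjusted p from 0.0535 to 0.0613, range 0.00211 to 0.0613 over 23 alternatives).

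Dusp1, the phosphatase that ends MAP kinase signals, changed sharply with culture. Its WT mean on the common scale was 85.2 ± 46.5 in crypts, 261 ± 123 at day 1 and 70.4 ± 23.8 at day 3 (SD, n = 3 each), and that of the libraries labelled Mtgr1-/- was 73.5 ± 19.6, 265 ± 139 and 140.5 ± 17.2. The rise from crypts to day 1 passed in both genotypes, at 1.65 ± 0.44 and 1.72 ± 0.44 on the log2 scale (adjusted p = 0.00500 and 0.00604), and in all 6 mice. The WT fall from day 1 to day 3, by 1.83 ± 0.44 (adjusted p = 0.0212), was seen in all 3 mice and was lost without WT day 1 library 1 or 3 or WT day 3 library 2 or 3 (adjusted p from 0.0649 to 0.126, range 0.000414 to 0.126 over 16 alternatives). In the libraries labelled Mtgr1-/- mouse 2 rose by 0.29 while mice 1 and 3 fell by 1.53 and 1.07 (mean -0.77 ± 0.44, adjusted p = 0.239). Day 3 counts were 104, 56.1 and 64.9 in WT against 148, 166 and 129, without overlap, and the log2 fold change was 1.01 ± 0.25 (adjusted p = 0.00818). In crypts (70.9, 38.6 and 123 against 63.1, 51.4 and 85.4) and at day 1 (401, 170 and 211 against 402, 129 and 256) the groups overlapped, with log2 fold changes of -0.10 ± 0.44 and -0.04 ± 0.45 (adjusted p = 0.938 and 0.948).

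The move from crypts to day 1 enteroids went with lower Fos and with higher Egr1, Ier3 and Dusp1 in both genotypes. In WT, 3 of 10 genes were higher at day 1 than in crypts and 2 lower (Fos and Junb), against 27.1% of all genes higher and 27.2% lower. In the libraries labelled Mtgr1-/-, 3 were higher and 3 lower (Fos, Fosb and Ier2), against 18.7% and 18.2% of all genes. From day 1 to day 3, 0 genes were higher and 4 lower in WT (Fos, Junb, Egr1 and Dusp1), where 2.41% of all genes were higher and 5.07% lower. In the libraries labelled Mtgr1-/- 0 of 10 passed by limma in either direction over that step, with 0 at an unadjusted p below 0.05 and 0 by edgeR, where 5.95% of all genes were higher and 8.08% lower. The median log2 change of the 10 was -0.80 in WT and -0.04 in the others.

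**Figure D4:**
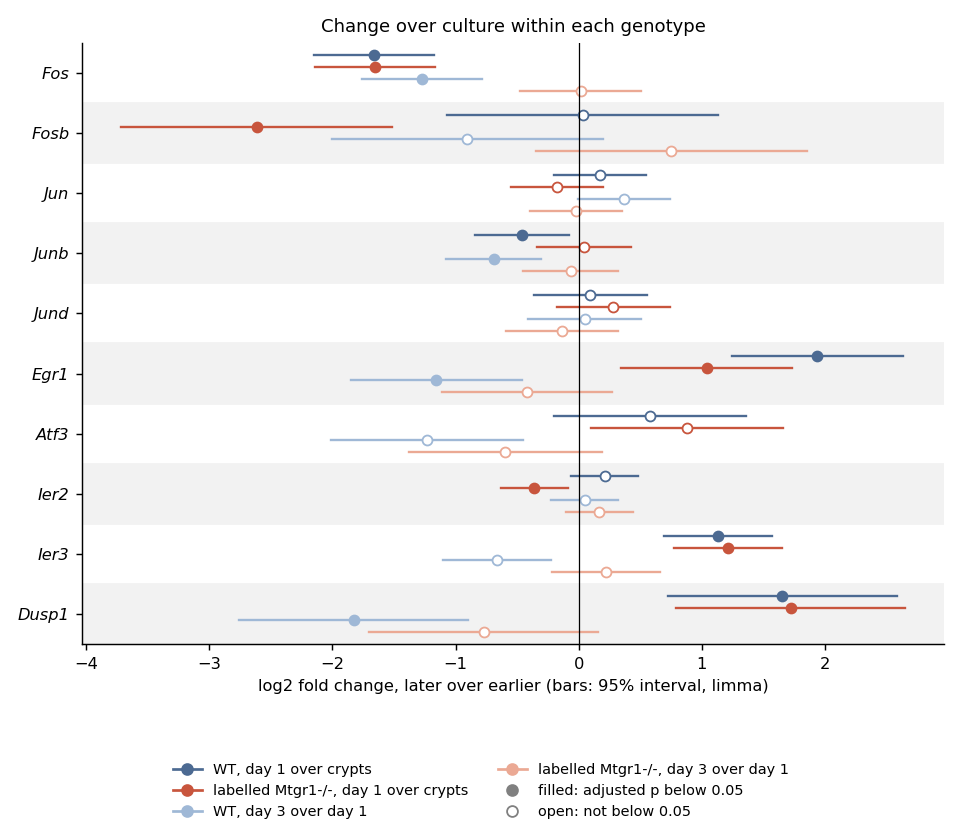
Log2 change of each gene (x axis) from crypts to day 1 and from day 1 to day 3, in WT and in libraries labelled Mtgr1-/-, with 95% intervals from limma and filled points where the adjusted p is below 0.05. Fos, Egr1, Ier3 and Dusp1 change alike in sign over the first step in both genotypes, and over the second step the filled points are WT points.

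Whether the step differed between genotypes was tested directly. For crypts to day 1, 0 genes had a higher and 2 a lower change in the libraries labelled Mtgr1-/- (Fosb and Ier2), against 19.5% of all genes higher and 19.7% lower. For day 1 to day 3, 0 of 10 passed by limma, 4 had an unadjusted p below 0.05 (Fos, Fosb, Junb and Ier3, all with a higher change in the libraries labelled Mtgr1-/-) and 0 passed by edgeR. Of all genes, 0.0231% were higher and 0% lower in that test. So the calls of the second step in WT and their absence in the other genotype are not shown to differ.

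Other genes of the same response were counted from lists drawn up with earlier results of these data known. Of 38 further immediate early and early response genes, 34 were measured, and at day 3 19 were higher and 5 lower in the libraries labelled Mtgr1-/-, against 29.9% of all genes higher and 29.1% lower, with a median log2 fold change of 0.55 against 0.003 for all genes. The largest rises there were Ccn2, a matrix-associated YAP and SRF target (3.66), Fosl1, the late-induced Fos relative FRA1 (2.42), and Plk3 (1.82), and the largest falls were Gadd45g (-1.70), Ier5l (-0.98) and Nr4a2 (-0.95). At day 1 15 were higher and 7 lower, against 30% and 28.9% of all genes (median 0.39 against -0.008 for all genes), led by Sgk1 (2.26) and Ccn2 (2.02) and, downward, by Ier5l (-1.67), Gadd45g (-1.34) and Nr4a1 (-1.06). None passed in crypts (limma). From crypts to day 1, Socs3, a STAT3 target, fell by 2.66 on the log2 scale in WT and 2.27 in the others. Fosl1 rose in both over that step, from WT crypt counts so near 0 that no fold is given.

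Feedback inhibitors of ERK and other MAP kinases, 14 of 15 of which were measured, were called between genotypes about as often as all genes. At day 3 4 were higher and 4 lower, against 29.9% and 29.1% of all genes, and at day 1 3 were higher and 4 lower, against 30% and 28.9%. The ERK phosphatase gene Dusp6 was higher at both times (1.65 and 1.93), as was Errfi1, an inhibitor of the EGF receptor (0.99 and 1.11). Lrig1, another EGF receptor inhibitor that also marks stem cells (-1.59 and -1.30), and the RAS-ERK inhibitor Spred1 (-1.14 and -0.97) were lower. In crypts 1 of the 14 passed, Spry4 (1.66, adjusted p = 0.0458). From day 1 to day 3, 4 of the 14 fell in WT, Dusp10 (-2.19), Dusp6 (-1.20) and Dusp5 (-0.93) the most, where 5.07% of all genes were lower. Over that step 1 of the 14 fell in the libraries labelled Mtgr1-/-, also Dusp10 (-1.32, adjusted p = 0.0205), and 2 rose, Spred3 (1.45) and Lrig1 (0.53), against 8.08% of all genes lower and 5.95% higher.

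Upstream, of 30 kinases and transcription factors, 11 were higher and 7 lower at day 1 and 10 higher and 4 lower at day 3, with medians of 0.09 and 0.08. For all genes the shares were 30% and 28.9% at day 1 and 29.9% and 29.1% at day 3, so the share higher lay near the background. The share lower was under the background at both times, at 7 of 30 and 4 of 30. Elk3, a ternary complex factor that partners SRF, was higher by 1.70 at day 1 and 3.32 at day 3. The largest fall at each time was that of Map2k6 (log2 fold changes -1.21 and -1.23). Elk1 was lower at day 1 (-0.62), and Creb1 was lower at both times (-0.60 and -0.55). Of 16 other bZIP genes that can pair with AP-1 proteins, 14 were measured, and 6 were higher and 0 lower at each of these times, to be read against the same shares, among them Maf (2.01 and 1.97) and Batf2 (1.13 and 1.43). In crypts 0 of either list passed (limma).

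Values that moved with the genotype or the library stand beside these results, and their part in them was not tested. Of 10 measured heat shock genes, 2 were higher and 4 lower at day 3, against 29.9% and 29.1% of all genes (median log2 fold change -0.10). The 2 were the stress-inducible Hspa1a (2.64) and Hspa1b (2.32). Hspa1b stood at 134 to 244 on the common scale in WT and 846 to 1270 in the libraries labelled Mtgr1-/-. The largest falls were Hsp90aa1 (-0.56), Hspd1 (-0.45) and Hsp90ab1 (-0.41). At day 1, 3 were higher and 5 lower, against 30% and 28.9% of all genes (median -0.37). Summed markers of crypt base stem cells (5 of 5 detected in every library) were 76308 to 92720 in WT day 3 enteroids and 1011 to 1866 in those labelled Mtgr1-/-. Secretory cell markers (7 of 8 in the tables) were 39347 to 52930 against 1029 to 3890, and villus enterocyte markers (9 of 9) 172433 to 197328 against 312784 to 601999. At day 1 the stem cell sums were 24101 to 50918 against 765 to 986, the secretory sums 43189 to 54348 against 1208 to 3305, and the enterocyte sums 238926 to 318980 against 411945 to 662647. In crypts they were 31781 to 41064 against 2986 to 5626, 97177 to 99966 against 5133 to 19916, and 547029 to 718710 against 284611 to 530904. The stem cell markers were Lgr5, Olfm4, Ascl2, Smoc2 and Axin2, and a sum is weighted to the most abundant. In crypts the paper reports no significant difference of Lgr5, Ascl2 or Axin2 by RNA-seq. It reports Olfm4 as nearly undetectable by qRT-PCR and more Lgr5+ cells per crypt. The crypt sum therefore does not show fewer stem cells.

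Leukocyte markers (13 of 14 in the tables) summed to 3635 to 28172 in WT crypts and 1080 to 3858 in crypts labelled Mtgr1-/-, with none at 0. In enteroids they summed to 47.1 to 487 in WT and 92.1 to 1064 in the others, with up to 8 of 13 at 0, and Ptprc was between 3.24 and 190 in single enteroid libraries. Stromal, endothelial, muscle and glial markers (7 of 14 in the tables) summed to 22.7 to 257 in all 18 libraries. WT crypt library 3 and null crypt library 3, which also had the highest shares of reads on COX1 (5.61% and 4.78%, against 2.28% to 3.23% elsewhere), held the highest value of their group for 5 and 7 of the 10 genes. The 7 of null crypt library 3 was the highest such count of any library, and what lay behind it was not tested. WT day 1 library 1 and null day 3 library 3 each led for 6 genes, and WT day 3 library 2 and null day 1 library 1 each for 5. Without both crypt libraries of mouse 3, 0 genes passed between genotypes in crypts, as with them. From crypts to day 1, 4 then passed in WT (Junb no longer, adjusted p = 0.0825), 5 in the libraries labelled Mtgr1-/- (Egr1 no longer, adjusted p = 0.0563) and 3 differed between genotypes (with Egr1 added, at -1.31, adjusted p = 0.0484).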

How the data were processed

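RNA was measured in 18 bulk libraries, 3 mice per genotype at each of 3 times. Per the methods, the authors made stranded mRNA libraries, sequenced single reads of 50 bases, trimmed them with fastp 0.20.0, quantified them with Salmon 1.3.0 on a GENCODE M21 (GRCm38) transcriptome, imported them with tximeta, left out genes with at most 1 count and compared genotypes with DESeq2 1.26.0. The deposited signal is the authors' gene count divided by 1 size factor per library, within the table of its time point. The authors' own columns (mean, log2 fold change, its error, test statistic, p-value and adjusted p-value) were not used.

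All values of all 18 libraries (100%) were whole multiples of 1 step, within 1e-06 reads, which gave back whole reads. In WT crypt library 2 and null day 3 library 2 this step is near 1, so recovery is less plain there, and both were kept. Genotypes were compared within each table by limma 3.58.1 in R 4.3.3 on log2(normalised count + 1), for genes whose mean reached 10, with a variance trend, two-sided, Benjamini-Hochberg adjustment over all tested genes and a threshold of 0.05. Fold changes on this scale understate those of low genes. Changes over culture and their differences between genotypes came from 1 limma fit of all 18 libraries on the common scale (median ratios of the whole reads over genes in all 3 tables, which cancels the separate factors), with mouse as a random effect (correlation 0.00679). As alternatives, edgeR 4.0.16 on whole reads called 559 crypt genes, and 7383 and 7605 in day 1 and day 3 enteroids, DESeq2 1.42.0 called 1379, 7509 and 7597, and limma 614, 7413 and 7545. The other alternatives were each library left out, pseudocounts of 0.1 and 8, no filter, scaling to the library total, quantile normalization, no trend, array weights and the mouse number as a block. A covariate for Xist-positive libraries and leaving out both crypt libraries of mouse 3 were added after seeing the data. Scripts were tested on simulated data.

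Groups, times and mouse numbers came from the labels. Between genotypes, same-numbered libraries deviated together at day 1 (correlations across genes of 0.116, 0.231 and 0.216), although the labels do not say what a number shares between genotypes. The reported genotype fits used no such pairing, and the number entered them only as a block in an alternative. Within a genotype the same number is the same mouse. The 10 genes and all lists were chosen with earlier results of these data known. All 10 genes are named, and from each list up to 3 genes per direction with the largest change among those that passed, not all of which are printed. Genes are given with Ensembl identifiers matched to GENCODE M21.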

Additional observations from a re-analysis of the deposited data

Results flagged for a closer look

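For Fosb and Ier2 the change from crypts to day 1 enteroids differed between genotypes by the test of the difference itself. For Fosb the change in the libraries labelled Mtgr1-/- minus that in WT was -2.65 ± 0.73 on the log2 scale (SE, adjusted p = 0.0110, limma). Fosb changed by -2.33, -2.48 and -3.04 in the 3 mice labelled Mtgr1-/- and by -0.11, 0.11 and 0.10 in the 3 WT mice. Its common-scale counts at day 1 were 3.54 to 11.2 in the libraries labelled Mtgr1-/-, so the size rests on few reads, and with a pseudocount of 8 it was -1.87 (adjusted p = 0.0119, range 0.00258 to 0.0337 over 23 alternatives). For Ier2 the difference was -0.57 ± 0.18 (adjusted p = 0.0213, limma), with changes of -0.36, -0.52 and -0.21 in the 3 mice labelled Mtgr1-/- and of 0.16, 0.26 and 0.21 in the 3 WT mice. That call was lost without WT crypt library 1, null crypt library 2, WT day 1 library 3 or null day 1 library 1 (adjusted p = 0.0535, 0.0613, 0.0602 and 0.0587, range 0.00211 to 0.0613 over 23 alternatives).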

How the results depend on the processing

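Of 518 alternative results for genes that passed, 466 passed again in the same direction, 52 did not pass and 0 reversed. A further 39 results passed only under an alternative, and in 68 the sign changed for a gene that passed in neither fit. Where not stated, the cause was not tested. In crypts 1 gene (Egr1) passed with array weights and 1 by DESeq2. At day 1, 3 passed when scaled to the library total and 9 with array weights, and leaving out 1 library gave 3 (without WT library 2) to 7 (without null library 2). At day 3, leaving out 1 library gave 7 to 8. For WT from day 1 to day 3 it gave 1 (without WT day 1 library 1 or 3 or WT day 3 library 2) to 4, and 2 without WT day 3 library 1 or 3, with fewer samples in the fit. For the libraries labelled Mtgr1-/- over that step, 4 passed with array weights. For the difference between genotypes, 4 passed when scaled to the library total from crypts to day 1, leaving out 1 library gave 1 to 3 there, and 4 passed with array weights from day 1 to day 3.

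With the mouse number as a replicate block, 0 genes passed in crypts, 6 at day 1 (Fos added) and 8 at day 3, and it changed no other call of a gene. Same-numbered crypt libraries correlated at 0.0764, 0.274 and 0.346 and day 3 libraries at -0.007, -0.002 and -0.016. These values do not settle whether the numbers pair libraries of the 2 genotypes, and the reported genotype fits used no such block at any time. Without the mouse effect, or with mouse as a fixed block, the counts over culture were those reported. The Xist covariate left 0, 6 (Egr1 added) and 8 genes.

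When values were scaled to the library total, the median log2 fold change of all genes became -0.33 at day 1 (-0.008 before) and -0.20 at day 3 (0.003 before), so a rise is smaller and a fall larger on that scale by construction. The share of calls that were higher then moved from 50.9% to 28.3% at day 1, from 50.7% to 35.2% in day 3 enteroids, from 49.9% (50.6%) to 68.3% (36.3%) from crypts to day 1 in WT (in the libraries labelled Mtgr1-/-), from 42.4% to 79.5% from day 1 to day 3 in the latter, and from 49.9% to 21.5% for the difference between genotypes from crypts to day 1. With quantile normalization it moved from 32.3% to 43.1% for WT from day 1 to day 3 and from 100% to 88.2% (17 genes) for the difference between genotypes over that step. Over all genes, the crypt count of 614 ranged from 175 (without WT library 1) to 2100 (array weights), WT from day 1 to day 3 from 252 (without WT day 1 library 3) to 3715 (array weights) around 970, the libraries labelled Mtgr1-/- from 150 (without null day 1 library 3) to 6856 (array weights) around 1819, and the difference between genotypes over that step from 0 to 1587 (array weights) around 3. Depth limits Fosb, whose lowest value was 3.50.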
